A study of Mus musculus with 2 samples.

Results

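The colony-stimulating factors and their receptors were examined as 8 genes among the 55536 named genes of the nuclear RNA of mouse macrophages. They were taken by symbol from the annotation carried in the transcript tables and joined by gene identifier to the gene tables, and all 8 were found. The ligands were Csf1 (M-CSF), Csf2 (GM-CSF) and Csf3 (G-CSF). The receptor chains were Csf1r, Csf2ra, Csf2rb, Csf2rb2 and Csf3r. The cells were bone-marrow-derived macrophages of the inbred strain C57BL/6J, in 1 group of 2 libraries. Lipid A, which is the lipopolysaccharide moiety sensed by TLR4, was given to both at 100 ng/ml for 12 h, then washed away for 12 h, then given again at 100 ng/ml for 40 min. RNA was taken from the nucleus, in the nucleoplasmic fraction, and ribosomal RNA was depleted before sequencing. The labels number the libraries as biological replicates 1 and 2 and name a single donor for the pair, so different animals may vary more than these libraries do. Sex and age were not collected, and no gene was altered according to the labels.

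Colony-stimulating factors are secreted proteins that keep cells of the myeloid lineage alive and drive their growth and maturation. M-CSF acts through a receptor tyrosine kinase, the product of Csf1r, which it shares with interleukin-34, and macrophages grown from bone marrow are usually raised on it. GM-CSF needs a specific alpha chain, the product of Csf2ra, and the common beta chain made by Csf2rb, which the receptors for interleukin-3 and interleukin-5 also use. Mice carry a second beta gene, Csf2rb2, whose protein serves interleukin-3. G-CSF acts through Csf3r, a receptor best known for its role in neutrophils.

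The design held no unexposed, singly exposed or untreated cells and no other fraction, so no test between conditions was possible and every value below describes restimulated cells. Levels are given as TPM, a scale of transcript abundance that takes gene length into account and allows genes to be compared within a library. Libraries 1 and 2 held 19797829 and 17213606 expected counts on named genes. RNA input was 1 µg for library 1 but 500 ng for library 2, which cannot be told apart from the replicate number. All 8 macrophage markers were detected, with a median level of 147 TPM. In RNA from a whole culture, fewer cells of a type and less RNA per cell cannot be told apart.

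The receptor chains were abundant and of the ligands only Csf1 was. With a minimum of 10 expected counts in each library, 6 of the 8 genes were detected, beside 49.9% of the 22015 protein-coding genes. All 6 lay among the 10% of detected protein-coding genes with the highest mean TPM, a class that holds 4.99% of all protein-coding genes. The 5 receptor chains had a median of 97.5 TPM in library 1 and 70.3 TPM in library 2, against a median of 6.38 TPM for the mean level of detected protein-coding genes. The 3 ligands had a median of 0.35 TPM in library 1 and 0.23 TPM in library 2. The median receptor chain lay above the median ligand by 6.19 in library 1 and by 5.86 in library 2 on the log2(TPM + 1) scale, and by 6.11 from the mean levels. That distance rested on Csf2 and Csf3: among detected genes, with Csf1 as the only ligand, it was 0.48.

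**Figure D1:**
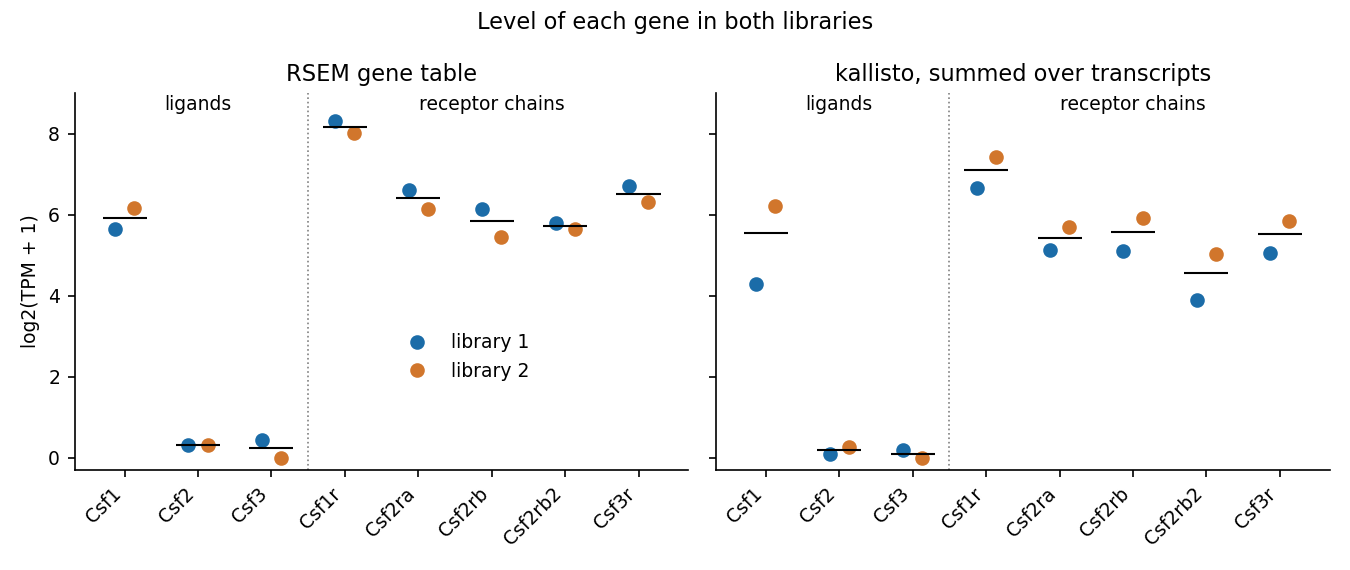
Level of the 8 genes as log2(TPM + 1) in library 1 (blue) and library 2 (orange), from the RSEM gene table on the left and from kallisto transcripts summed by gene on the right; horizontal bars give the log2 of 1 plus the mean TPM of the 2 libraries. Csf1 stands with the receptor chains and Csf2 and Csf3 lie near 0 with both programs.

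Among the ligands, Csf1 (ENSMUSG00000014599.10; chr3:107741048-107760469, minus strand, mm10) was read at 48.9 TPM in library 1 and at 70.7 in library 2, a mean of 59.8 ± 15.4 (SD, n = 2). These levels came from 3105 and 4990 expected counts. Csf1 was the only one of the 6 detected genes whose RSEM TPM, as deposited, was higher in library 2. With RSEM TPM rescaled over protein-coding genes, Csf1r (1141 and 1187) and Csf2rb2 (197 and 225) were higher in library 2 as well. The mean of Csf1 lay at percentile 93.3 of detected protein-coding genes. Csf2 (ENSMUSG00000018916.5; chr11:54247271-54249667, minus strand) held 3 expected counts in each library, which was 0.23 TPM in both. The exact Poisson 95% interval of 3 counts runs from 0.619 to 8.77 counts, so Csf2 was at the limit of what this depth can show. Csf3 (ENSMUSG00000038067.2; chr11:98701263-98703629, plus strand) held 9 counts in library 1, or 0.35 TPM, and 0 in library 2. The interval of 9 counts runs from 4.12 to 17.1, and a count of 0, by the one-sided limit used for zeros throughout, allows up to 3 counts, or 0.111 TPM, in library 2. The intervals and this limit cover counting error only, as the reads carry no molecular identifiers and may be copies of one molecule.

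Interleukin-34, the other ligand of Csf1r, had 0 counts for Il34 in both libraries. Of the ligands that use the beta chains, Il3 had 0 counts in both libraries and Il5 had 1 in each. A count of 0 allows up to 0.152 CPM (counts scaled to library size) in library 1 and 0.174 in library 2. Csf1 was thus the only ligand of these 5 receptor chains with more than 9 counts in a library in the RSEM tables.

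The stretches shown next are the parts of the Csf2 and Csf3 3′ UTRs with the most ATTTA pentamers in 30 bases, since this pentamer is the core of AU-rich elements, to which mRNA decay factors bind. They were read from GENCODE M21 transcripts, 5′ to 3′ on the gene's strand, with each base that belongs to an ATTTA in capitals. The Csf2 stretch lies at chr11:54247329-54247358 and the Csf3 stretch at chr11:98702984-98703013 (mm10).
Csf2-201: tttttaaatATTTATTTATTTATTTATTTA
Csf3-201: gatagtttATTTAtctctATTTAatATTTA
The Csf2 stretch held 5 pentamers, overlapping matches included, and the Csf3 stretch held 3. In the whole 3′ UTR, Csf2 had 9 in 317 bases, or 28.4 per kb, and 0.0954% of 20965 protein-coding genes had as many per kb or more. Csf3 had 6 in 669 bases, or 8.97 per kb, a density reached by 1.62% of genes. Csf1 had 4 in its longest 3′ UTR of 2111 bases, or 1.89 per kb, near the median of 1.22 per kb over all genes. Of the receptor chains, Csf1r had 3 in 1669 bases, and Csf2ra, Csf2rb, Csf2rb2 and Csf3r had none, as did 35.3% of genes. The 2 ligands with the densest pentamers were also the 2 genes with the lowest levels. Whether pentamer density has a part in these levels was not tested, and which factor binds these sites was not measured.

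The Csf1 gene yields proteins of different length by splicing, among them long forms that are secreted and a short form that stays on the cell surface until it is cleaved. Transcripts with a complete coding sequence of 1659 bases, Csf1-201 and Csf1-203, held 60.8% and 66.3% of the TPM of complete coding Csf1 transcripts in libraries 1 and 2. The transcript with 774 coding bases, Csf1-202, held 32.8% and 27.6%. The transcript with 492 coding bases, Csf1-204, held 6.36% and 6.07%. The long coding sequence led in both libraries, and kallisto gave it 45.5% ± 0.339 (SD, n = 2) against 32.9% ± 0.504 for the 774-base form. The long 3′ UTR of 2111 bases, which carries the ATTTA pentamers of Csf1, was part of 85.8% ± 2.31 of that TPM by RSEM and of 56.3% ± 2.10 by kallisto.

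Csf1r (ENSMUSG00000024621.16; chr18:61100598-61132149, plus strand), the receptor tyrosine kinase for M-CSF, had the highest level of the 8 genes. It was read at 318 TPM in library 1 and at 258 in library 2, a mean of 288 ± 42.3 (SD, n = 2), at percentile 99.0. Its lower library lay above the higher library of every other gene of the set. The next gene, Csf3r, was lower by a factor of 3.07 in library 1 and 3.29 in library 2, and kallisto gave factors of 3.07 and 3.02. The receptor exceeded its ligand Csf1 by 6.50 times in library 1 and 3.65 times in library 2, and this ratio differed between the libraries more than the ratio to Csf3r. By kallisto the ratios to Csf1 were 5.35 and 2.35, and over transcripts of 1000 nt or longer they were 5.60 and 2.25.

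A short isoform weighed on the level of Csf1r. Csf1r-205, an incomplete coding model of 416 nt with 3 exons, took 317 of 20678 expected counts in library 1 and 498 of 13642 in library 2. On the TPM scale, which divides by length, this was 21.8% and 43.5% of the gene. By RSEM, the full-length Csf1r-201 took 52.0% and 28.9%. Csf1r-202, with the same coding length of 2934 bases and a longer 3′ UTR, took 22.5% and 26.0% by RSEM. By kallisto, Csf1r-202 took 4.61% and 6.97%, Csf1r-201 took 53.2% and 43.5%, and Csf1r-205 took 34.2% and 43.7%. Over transcripts of 1000 nt or longer, Csf1r was at 249 TPM in library 1 and at 146 in library 2, still the highest of the 8 genes in each. Hmgxb3, on the opposite strand, shares 873 of the 5774 exonic bases of Csf1r. It was read at 9.55 ± 2.46 TPM, and since strand use in counting is not given in the sources used here, reads of this overlap may come from either gene.

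Csf3r (ENSMUSG00000028859.14; chr4:126024550-126044440, plus strand), the G-CSF receptor, was the second gene by RSEM TPM in both libraries and the fourth by kallisto TPM. It was read at 104 TPM in library 1 and at 78.6 in library 2, a mean of 91.1 ± 17.8 (SD, n = 2), from 5414 and 4212 counts. Of 10 neutrophil markers, 1 was detected, the collagenase gene Mmp8 at 0.845 ± 0.219 TPM. The 10 summed to 2.01 TPM in library 1 and to 2.97 in library 2, and Elane, Ly6g, Camp and Retnlg had 0 counts in both. By RSEM, Csf3r alone thus exceeded the sum of all 10 neutrophil markers in each library. By kallisto 3 of the 10 reached 10 estimated counts in both libraries. The added ones were Cxcr2, with 0 and 1 expected counts by RSEM and 211 and 312 estimated counts by kallisto, and Mpo, with 1 and 4 by RSEM and 19.8 and 43.9 by kallisto. Whether neutrophil RNA has a part in the level of Csf3r was not tested beyond these values.

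Most Csf3r reads fell to transcripts that encode the whole receptor. Coding transcripts Csf3r-201 and Csf3r-202 held 93.4% and 92.5% of its expected counts, and 76.4% and 73.5% of its TPM. The remaining TPM fell to short noncoding models, and the programs differed on which. RSEM gave Csf3r-203, of 921 nt, 19.4% and 23.2% of the TPM of the gene, and kallisto gave it 0.476% and 0.129%. On Csf3r-204, of 696 nt, kallisto placed 26.3% and 26.9%, where RSEM placed 4.19% and 3.30%.

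The alpha chain of the GM-CSF receptor and both beta chains lay in the same range. Csf2ra (ENSMUSG00000059326.7; chr19:61223957-61228429, minus strand), the alpha chain specific to GM-CSF, was read at 97.5 TPM in library 1 and at 70.3 in library 2, a mean of 83.9 ± 19.2 (SD, n = 2). Csf2rb (ENSMUSG00000071713.6; chr15:78325752-78353847, plus strand), the common beta chain, was read at 69.9 TPM and 43.0 TPM, a mean of 56.5 ± 19.0. Csf2rb2 (ENSMUSG00000071714.7; chr15:78282507-78305721, minus strand), the beta chain of interleukin-3, was read at 55.0 TPM and 48.9 TPM, a mean of 52.0 ± 4.36. The lower library of Csf2ra lay just above the higher library of Csf2rb, and the ranges of Csf2rb and Csf2rb2 overlapped. Il3ra, the alpha chain specific to interleukin-3, was lower, at 19.1 TPM and 16.2 TPM, so that Csf2ra exceeded it by 5.10 and 4.34 times. Il5ra, the alpha chain for interleukin-5, had 0 counts in both libraries by RSEM and 50.9 and 35.6 estimated counts by kallisto. The alpha chain for GM-CSF was thus the highest by RSEM of the 3 alpha chains that pair with Csf2rb.

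In the order of the 8 mean levels, Csf1r stood apart from Csf3r, and Csf2rb2 stood apart from Csf2. Between them, Csf3r, Csf2ra, Csf1, Csf2rb and Csf2rb2 followed one another with neighbours whose ranges over the 2 libraries overlapped. Their order changed between the libraries: Csf1 was the sixth of the 8 genes in library 1 and the third in library 2. The credibility intervals that the authors deposited set Csf2ra above Csf1 in library 1 but not in library 2. Such an interval need not hold the TPM it stands beside: that of Csf3r in library 1 ran from 94.07 to 102.99, beside 103.69 TPM. Csf2 and Csf3 exchanged places at the bottom. The order of Csf2ra against Csf2rb also turned on short isoforms: the ratio of Csf2ra to Csf2rb was 1.39 and 1.63 over all transcripts, and 0.846 and 0.973 over transcripts of 1000 nt or longer.

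Csf2rb and Csf2rb2 stand head to head on chromosome 15 with 20.0 kb between them and are close copies. The leading transcripts, Csf2rb-201 and Csf2rb2-201, have coding sequences of 2691 and 2637 bases that were identical at 2505 aligned bases, mismatched at 126 and gapped at 66, an identity of 95.2% over ungapped positions. Of the 31-base words of the coding sequence, 39.6% in Csf2rb and 40.4% in Csf2rb2 also occurred in the other gene. Of the 100-base words, 11.0% and 11.3% did. A read that lies wholly within shared sequence can be assigned to either gene. The window with the most mismatches is shown because it can tell the genes apart, with 22 mismatches in 120 bases in capitals. It covers coding bases 309 to 428 of Csf2rb, in 2 exons within chr15:78338898-78340471, and 312 to 431 of Csf2rb2, in 2 exons within chr15:78292838-78294433 (mm10).
Csf2rb-201: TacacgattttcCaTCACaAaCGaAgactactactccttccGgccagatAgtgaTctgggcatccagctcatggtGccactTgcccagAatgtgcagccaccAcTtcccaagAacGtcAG
Csf2rb2-201: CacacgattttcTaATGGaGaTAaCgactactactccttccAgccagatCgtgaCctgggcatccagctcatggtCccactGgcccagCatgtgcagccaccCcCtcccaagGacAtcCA
The longest run the genes share is shown as the other extreme, where no read inside it can be told apart. It holds 242 bases, coding bases 2083 to 2324 of both genes, at chr15:78348577-78348818 on the plus strand in Csf2rb and chr15:78284630-78284871 on the minus strand in Csf2rb2, in 1 exon of each.
shared run: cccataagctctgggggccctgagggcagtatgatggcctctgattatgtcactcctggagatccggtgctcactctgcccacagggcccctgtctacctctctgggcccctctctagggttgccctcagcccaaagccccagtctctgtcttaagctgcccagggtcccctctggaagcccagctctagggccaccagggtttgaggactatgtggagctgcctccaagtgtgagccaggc
The plot of identity along the coding sequence shows both stretches.

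**Figure D2:**
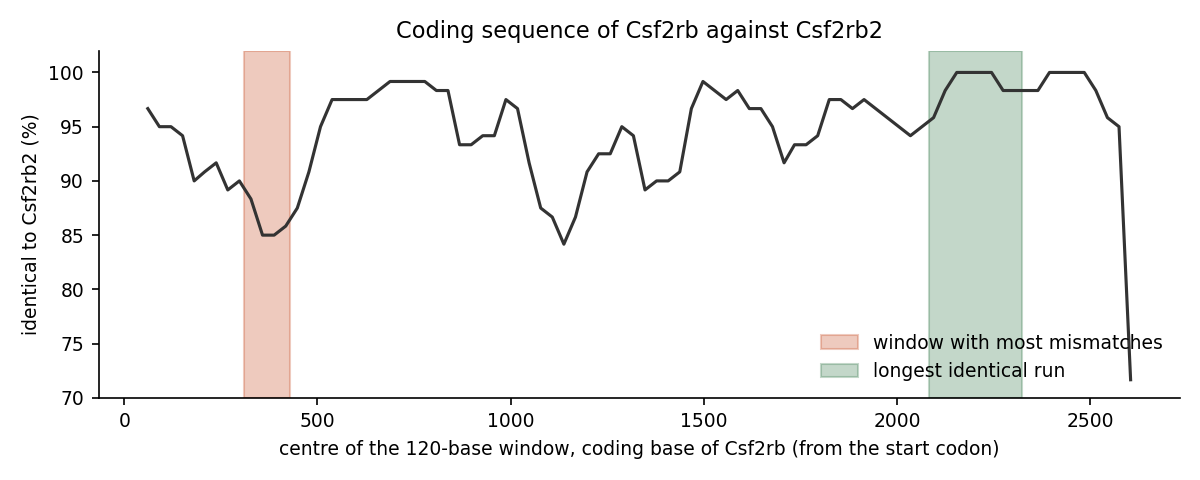
Percent of bases of Csf2rb identical to Csf2rb2 in 120-base windows along the coding sequence, plotted at the window's centre; gapped positions count as not identical. The green band marks the identical run of 242 bases and the red band the ungapped window with 22 mismatches; the dip to 71.7% in the last window is a stretch that Csf2rb2-201 lacks.

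How the pair was divided depended on the program and the scale. By RSEM, Csf2rb2 held 44.1% of the summed TPM of the pair in library 1 and 53.2% in library 2, a mean of 48.6% ± 6.45 (SD, n = 2). By kallisto it held 29.5% and 34.4%. On the scale of counts the programs were closer: RSEM placed 47.8% and 55.3% of the pair's expected counts on Csf2rb2, and kallisto placed 45.3% and 51.3% of its estimated counts there. The leading transcripts were nearly level in library 1 by RSEM, at 53.1 TPM for Csf2rb-201 and 53.4 TPM for Csf2rb2-201, and stood at 34.0 and 45.7 TPM in library 2. By kallisto, the 328-nt Csf2rb-203 and the 370-nt Csf2rb-207 took 41.3% of the TPM of Csf2rb in library 1 and 36.0% in library 2. By RSEM the same models took 5.62% and 2.88%.

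The receptor chains differed in how much of their RNA was assigned to coding transcripts. Csf2rb2 had 98.7% ± 1.38 (SD, n = 2) of its TPM in coding transcripts and Csf1r had 97.4% ± 1.42. The share of Csf1r includes Csf1r-205, whose coding sequence is incomplete, at 21.8% in library 1 and 43.5% in library 2. Csf2ra had 36.3% in library 1 and 44.6% in library 2, the lowest of the 6 detected genes. A further 35.5% and 32.6% of its TPM fell to 4 transcripts annotated as retained introns, and 28.2% and 22.7% to Csf2ra-204, a noncoding model of 330 nt. The last rested on few reads, 3.43% and 2.38% of the counts of Csf2ra, while coding transcripts held 56.0% and 67.0% of them. Nuclear RNA can hold unspliced transcripts, whose reads can be assigned to such models, so a retained intron and one not yet removed cannot be told apart.

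Set against the 5058 protein-coding genes with an annotated retained intron, whose median share was 24.0% of TPM, Csf2ra with 34.1% ± 2.01 (SD, n = 2) lay at percentile 67.8. Csf2rb with 21.2% ± 0.472 lay at percentile 44.3, Csf1 with 9.54% ± 1.77 at 18.6, and Csf1r with 2.63% ± 1.42 at 5.18. By kallisto the shares were 41.5%, 34.6%, 8.20% and 5.06% in the same order of genes, beside a median of 29.9%. Csf1r thus had one of the lower shares with both programs and Csf2ra a share above the median with both. Csf2rb2 and Csf3r have no transcript annotated as a retained intron, and their share was not defined.

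**Figure D3:**
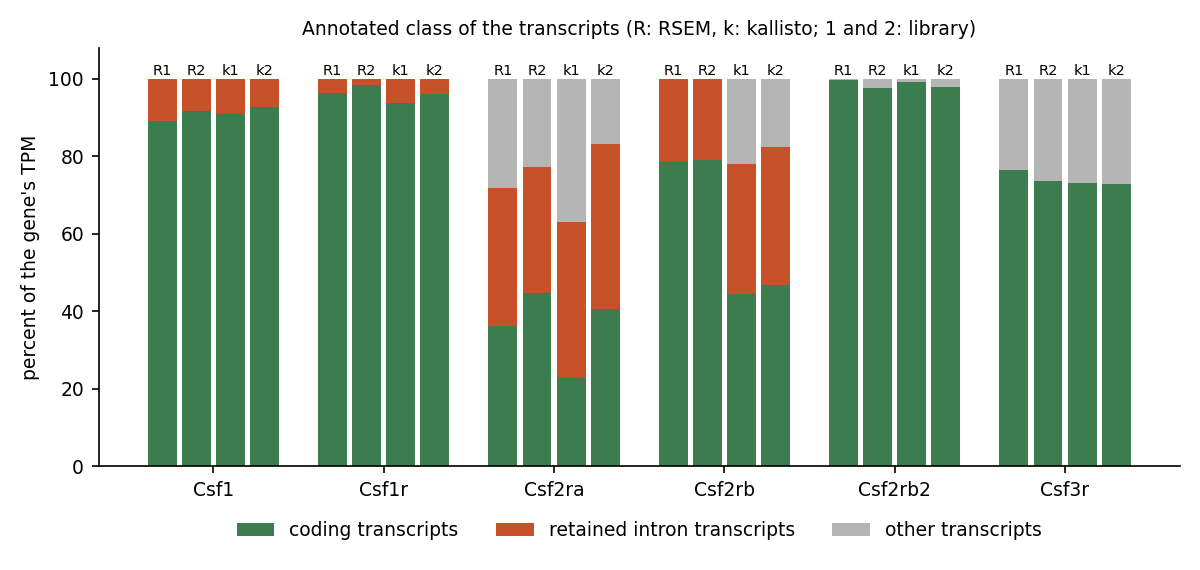
Percent of each detected gene's TPM in coding transcripts (green), transcripts annotated as retained introns (red) and other noncoding models (grey), for libraries 1 and 2 by RSEM (R1, R2) and kallisto (k1, k2). Csf2ra has the smallest green part in every column, from 22.9% to 44.6%. The green parts include models with an incomplete coding sequence, such as Csf1r-205.

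The libraries differed most in Csf1. TPM ratios were centred, since the median detected protein-coding gene was lower by 0.27 on the log2 scale in library 2 by RSEM. After centring, Csf1 was higher in library 2 by 0.80 on the log2(TPM + 1) scale, or 1.74-fold, and 4.09% of detected protein-coding genes were at least as far apart. Csf2rb had a centred difference of -0.41, with 26.4% of genes as far apart, and Csf2ra one of -0.19. Csf1r, Csf2rb2 and Csf3r lay near 0 by RSEM TPM, at -0.02, 0.11 and -0.12. Csf1r was at -0.53 over transcripts of 1000 nt or longer and at -0.31 with TMM factors, beside -0.38 and -0.28 for Csf2rb. Past 2-fold, with no pseudocount, were 0 of the 6 detected genes, beside 2.98% of 7984 genes with a mean of 100 or more counts. The count was also 0 with TMM factors, beside 1.97% of genes, and without centring, beside 7.68%. With kallisto the count was 1 of 6, Csf1, beside 1.99% of genes. The kallisto difference of Csf1 was 1.33 by the other calculation, with a pseudocount of 1. With 1 library of each RNA input and 1 donor entry, no test of these differences was possible.

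**Figure D4:**
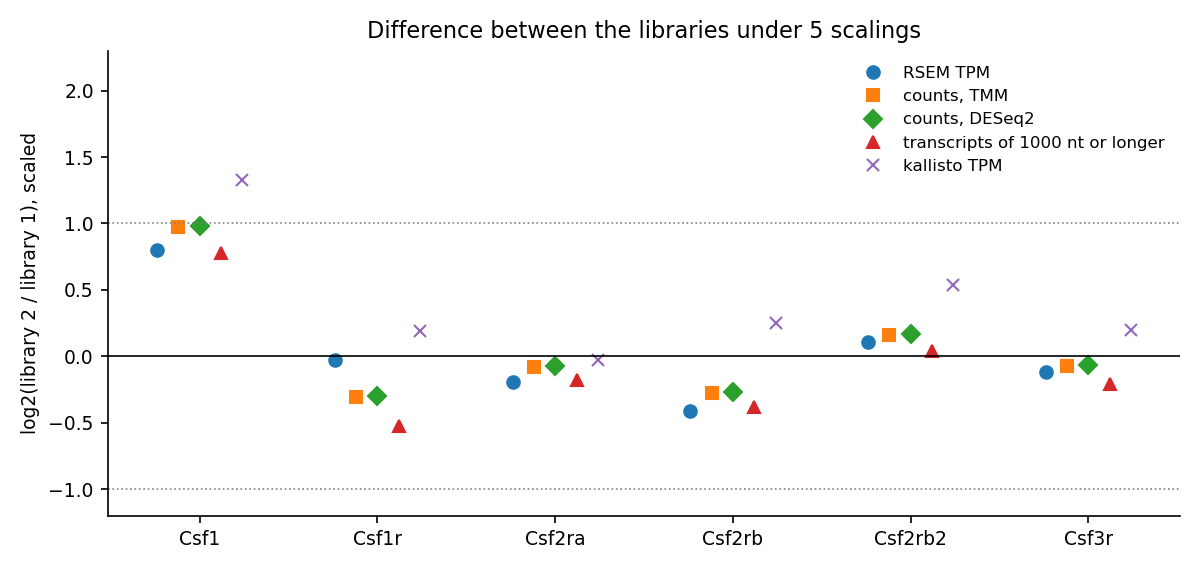
Log2 of library 2 over library 1 for the 6 detected genes after scaling, with RSEM TPM over all transcripts, RSEM TPM over transcripts of 1000 nt or longer and kallisto TPM centred on detected protein-coding genes, and expected counts scaled by TMM or DESeq2 factors; dotted lines mark 2-fold. Csf1 lies between 0.78 and 1.33 under the 5 scalings, and Csf1r, Csf2rb and Csf3r lie below 0 except with kallisto.

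The promoters of Csf1 and of the receptor chains are shown because they belong to abundant genes of the set and differ in the motifs they hold. The RefSeq table (GRCm38.p6) gave 5 of the 8 genes, from 250 bases before to 50 after the start. Csf3, Csf1r and Csf2rb had no entry. The windows were searched on both strands for AGGAAG, letters found in motifs of the ETS family to which the macrophage factor PU.1 belongs, for TATAAA, for the AP-1 motif TGANTCA and for the NF-kB consensus. Capitals mark AGGAAG or its reverse complement in the receptor promoters and the NF-kB consensus in that of Csf1. The windows are chr4:126024409-126024708 (plus strand) for Csf3r, chr19:61228369-61228668 (minus) for Csf2ra, chr15:78305672-78305971 (minus) for Csf2rb2 and chr3:107760420-107760719 (minus) for Csf1.
Csf3r: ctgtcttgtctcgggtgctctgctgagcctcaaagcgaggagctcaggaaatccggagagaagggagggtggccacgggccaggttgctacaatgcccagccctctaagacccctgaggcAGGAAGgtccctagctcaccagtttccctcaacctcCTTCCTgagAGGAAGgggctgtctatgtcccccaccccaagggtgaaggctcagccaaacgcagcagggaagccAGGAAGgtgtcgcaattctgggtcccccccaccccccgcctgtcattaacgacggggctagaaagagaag
Csf2ra: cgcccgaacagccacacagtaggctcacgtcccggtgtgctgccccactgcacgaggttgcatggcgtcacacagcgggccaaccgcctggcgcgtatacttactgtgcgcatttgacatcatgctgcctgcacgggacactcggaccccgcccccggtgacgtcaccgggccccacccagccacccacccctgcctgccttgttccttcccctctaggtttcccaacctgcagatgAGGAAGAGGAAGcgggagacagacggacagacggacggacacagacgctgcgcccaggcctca
Csf2rb2: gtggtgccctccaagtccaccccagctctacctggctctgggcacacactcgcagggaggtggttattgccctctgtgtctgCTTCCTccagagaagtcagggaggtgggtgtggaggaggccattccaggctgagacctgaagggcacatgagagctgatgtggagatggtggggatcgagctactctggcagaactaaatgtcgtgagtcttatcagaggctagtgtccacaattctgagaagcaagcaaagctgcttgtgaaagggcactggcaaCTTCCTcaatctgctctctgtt
Csf1: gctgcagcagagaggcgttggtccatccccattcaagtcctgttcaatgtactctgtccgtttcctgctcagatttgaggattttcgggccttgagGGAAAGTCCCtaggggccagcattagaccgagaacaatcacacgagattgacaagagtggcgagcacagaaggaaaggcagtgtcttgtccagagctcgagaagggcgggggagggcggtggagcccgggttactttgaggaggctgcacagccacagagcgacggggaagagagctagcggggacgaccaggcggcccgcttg
AGGAAG was found in 3 of 3 receptor promoters and in 0 of 2 ligand promoters, beside 35.4% of 32851 promoters. Csf3r held 4 matches, Csf2ra held 2 that abut, and Csf2rb2 held 2, of which 1 lies 28 bases after the start. Of the 5 windows, the NF-kB consensus was found in that of Csf1 only, 154 bases before the start, and in 4.51% of promoters. TATAAA, found in 13.6% of promoters, and TGANTCA, found in 7.81%, matched in 0 of 5. No match of one motif overlapped a match of another. The RefSeq start of Csf2 lies 232 bases from its start in the annotation of the tables and that of Csf3r 109 bases. The Csf2 window, chr11:54249850-54250149 (minus strand), thus lies wholly before the annotated start of Csf2. The bases next to that start were not searched, so the lack of matches in Csf2 does not cover them. A match is a description of letters and says nothing of binding.

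The genes beside the members ranged from 0 counts to a mean of 81.4 TPM. Il3, 15.6 kb from Csf2, had 0 counts, and P4ha2, on the other side of Csf2, was read at 1.72 ± 0.127 TPM (SD, n = 2). Csf3, at 0.35 and 0 TPM, lies 0.962 kb from Med24 at 7.40 ± 0.339 TPM and 5.28 kb from Psmd3 at 16.7 ± 5.55 TPM. A gene with so few counts thus lay between 2 detected genes. Beside Csf1r, Pdgfrb, which encodes a related receptor kinase, was read at 0.065 ± 0.0495 TPM and Slc26a2 at 7.58 ± 0.424. Ncf4, a subunit of the phagocyte NADPH oxidase on the far side of Csf2rb2, reached 81.4 ± 13.4 TPM, and Tex33 beyond Csf2rb had 0 counts. Ahcyl1 beside Csf1 was read at 23.3 ± 0.389 TPM and Eps8l3 on its other side had 0 counts. Mrps15 beside Csf3r was read at 6.51 ± 1.23 TPM and Grik3 had 0 counts, as had both neighbours of Csf2ra, Gm6020 and Gm21060.

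The genes listed for signalling by these receptors were all detected, and most of those listed for other growth factor systems of blood cells were not, by RSEM. All 20 listed genes of receptor signalling were detected and 8 were in the top 10%, with a median of 31.7 TPM. Over all protein-coding genes these shares were 49.9% and 4.99%, which also stand beside the lists that follow. The lists were chosen with earlier results of these data known. Syk, a kinase, reached 236 ± 57.8 TPM (SD, n = 2), Lyn, a Src-family kinase, 117 ± 28.9 and Tyrobp, the adaptor DAP12, 101 ± 6.23. Fgr, another Src-family kinase, was the lowest at 0.97 TPM. Of 13 other growth factors and receptors, 4 were detected and none was in the top 10%, with a median of 0.035 TPM. By kallisto, 6 of the 13 reached 10 estimated counts in both libraries. Those detected by RSEM were Il3ra, Flt3l, the gene of FLT3 ligand, at 7.76 TPM, Kitl, the gene of stem cell factor, at 1.98 TPM and its receptor Kit at 0.84 TPM.

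The genes listed as restraining the receptors were detected in 13 of 13 cases, 5 of them in the top 10%, with a median of 15.1 TPM. Socs3, which restrains signalling by the G-CSF receptor, was the highest at 143 TPM, followed by Adam17, a protease that sheds the Csf1r protein, at 91.3 ± 34.7 TPM (SD, n = 2) and the lipid phosphatase gene Inpp5d at 67.5 TPM. Socs2 was the lowest at 0.515 TPM. Of 10 transcription factors known to act at Csf1r or in myeloid cells, 10 were detected and 4 were in the top 10%, with Jun at 63.7 TPM, Cebpb at 54.7 and Runx1 at 47.5 as the highest by mean level and Ets1 at 0.265 as the lowest. Cebpb differed between the libraries, at 82.3 TPM in library 1 and 27.0 in library 2, so its rank holds for the mean only. All 8 listed mRNA decay genes were detected, 2 in the top 10%. Zfp36, whose product tristetraprolin binds AU-rich elements such as those of Csf2, reached 409 TPM in library 1 and 416 TPM in library 2. Zfp36l1 at 54.9 TPM and Hnrnpd at 40.1 TPM followed, and Rc3h1 was the lowest at 10.5 TPM. In this fraction Zfp36 was thus high where, by RSEM, Csf2 and Csf3 were at most at 9 counts, and no link between these levels was tested.

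Of 10 genes known to respond to the growth factors, 9 were detected and 3 were in the top 10%, with a median of 3.26 TPM. Mcl1 and Bcl2l1, which protect cells from death, were at 384 and 42.5 TPM, and the kinase gene Pim1 was at 206 TPM. Irf4, the lowest detected, was at 0.345 TPM, and Ccl17, a chemokine gene that GM-CSF induces in macrophages, had 0 counts in both libraries. Markers of other cells that can make or bind these factors varied in level. By RSEM, none of 6 fibroblast markers was detected and they summed to 0.26 and 0.19 TPM. Of 6 T cell markers Cd4 was detected, at 21.4 ± 2.24 TPM (SD, n = 2), and it made up most of their sum of 20.2 and 23.4 TPM. Of 5 endothelial markers 3 were detected, among them Vwf at 20.8 ± 0.799 TPM and Kdr at 11.2 ± 2.28 TPM, with a sum of 35.7 and 32.1 TPM. Cd4, Vwf and Kdr thus lay above the median of detected protein-coding genes. Of 6 dendritic and 5 mast cell or basophil markers, 3 and 1 were detected, with sums of at most 7.84 and 1.20 TPM. By kallisto, 3 fibroblast, 4 T cell, 4 endothelial, 5 dendritic and 2 mast cell or basophil markers reached 10 estimated counts in both libraries. The part of such cells in the levels of Csf1 and the receptor chains was not tested.

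**Figure D5:**
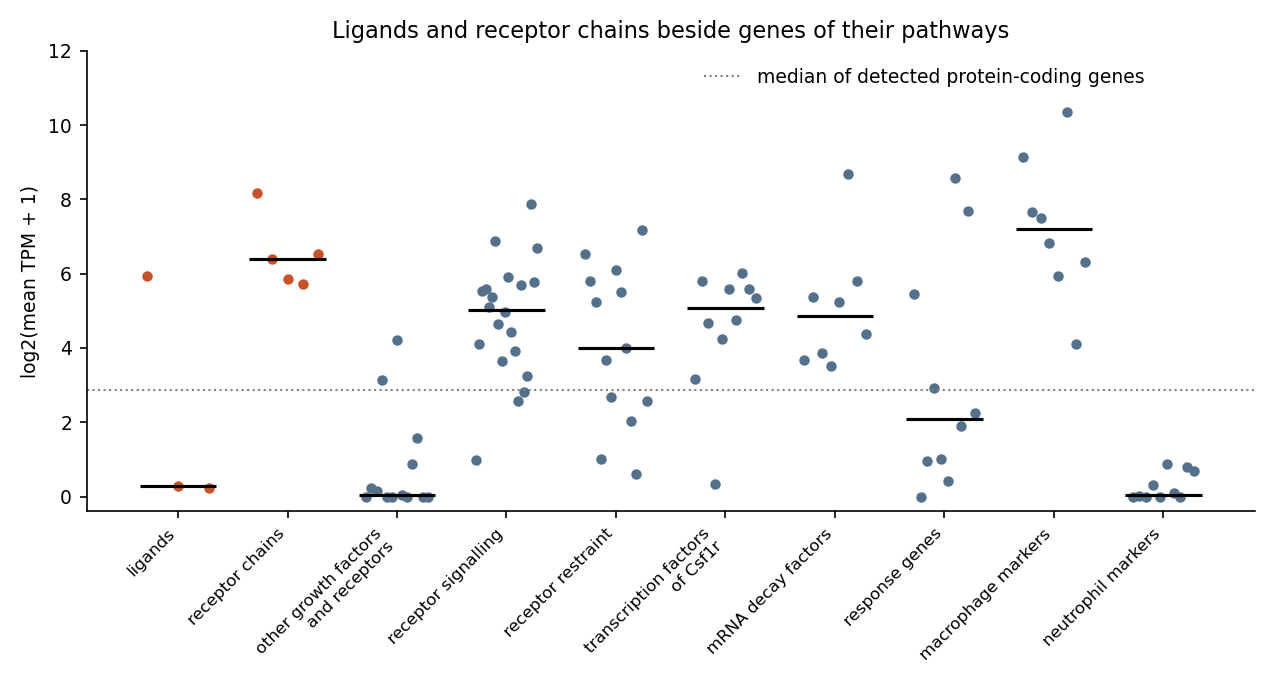
Mean level of each gene as log2(mean TPM + 1) for the ligands and receptor chains (red) and for lists of related genes and cell markers (blue); bars give the list's median and the dotted line the median of detected protein-coding genes. All 5 receptor chains lie above the dotted line, with Csf1 as the only ligand there.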

How the data were processed

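Total RNA depleted of ribosomal RNA was measured in 2 libraries of 1 group. Per the notes deposited beside the files, the tables use mm10 and GENCODE M21. Aligner, strand use and program versions were not given in the sources used here. Expected counts were deposited by the authors, with TPM, per gene and transcript in the RSEM layout. The authors also deposited estimated counts and TPM per transcript in the kallisto layout, the percent of a gene in each transcript, and credibility bounds of TPM, a score of precision at no stated level.

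TPM was used as deposited and averaged over the libraries. Spike-in, phiX and unnamed numeric features were left out of count totals. Detection needed 10 expected counts in both libraries. Log2 ratios had a pseudocount of 1 and were centred on detected protein-coding genes. The ratio calculation was run on simulated counts with known folds and no pseudocount. These counts held no transcript lengths and no shift of the median gene, so only the arithmetic was checked. Sequences came from GENCODE M21 and RefSeq, and Csf2rb and Csf2rb2 were aligned with Biopython 1.88. Alternatives were kallisto values, TMM factors (edgeR 4.0.16), DESeq2 1.42.0 size factors on rounded expected counts, other pseudocounts and minimums, leaving out a library and, chosen after seeing the data, transcripts of 1000 nt or longer, rescaled kallisto TPM and kallisto counts for the beta pair and for detection in lists. The members and lists were chosen with earlier results of these data known. Named were all members, their nearest protein-coding neighbours, and the 3 highest and the lowest detected genes of each pathway list, with Il34, Il3, Il5, Il3ra and Il5ra. Ccl17, markers at 0 counts, overlapping genes, Cxcr2 and Mpo were named after their values were seen.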

Additional observations from a re-analysis of the deposited data

How the results depend on the processing

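The distance between the median receptor chain and the median ligand kept its sign but moved with the setting. It was 7.99 with a pseudocount of 0.1, 5.34 with kallisto TPM, 7.51 with kallisto TPM rescaled over protein-coding genes, 5.53 over transcripts of 1000 nt or longer and 0.48 over detected genes only. It ranged from 5.86 to 6.19 when 1 library was left out. With kallisto, 1 gene in place of 0 passed 2-fold between the libraries, and Csf2rb2 took 32.0% of the TPM of the beta pair. With a pseudocount of 1, the centred library difference turned from below 0 to above 0 with kallisto for Csf1r (0.19), Csf2rb (0.25) and Csf3r (0.20). Their kallisto TPM rescaled over protein-coding genes, with no pseudocount or median centring, was not higher in library 2. In libraries 1 and 2 it was 1105 and 1049 for Csf1r, 367 and 366 for Csf2rb, and 359 and 347 for Csf3r. The cause of the turn was not tested. The number of detected genes stayed at 6 at a minimum of 50 counts and with kallisto, and was 7 at a minimum of 1. By CPM, 5 of the 8 genes were in the top 10%. Of the other values of single genes, 55 kept their direction or stayed within the spread of the libraries and 35 moved beyond it. Among the 35 were all levels rescaled over protein-coding genes, which are on another scale. Among the 55 were the levels of all 8 genes with library 1 or library 2 left out. Those could not move, since each of 2 libraries always lies within their SD of the mean. Depth limits Csf2, at 3 counts in each library, and Csf3, at 9 and 0. No paired analysis was possible because there is 1 group.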
